A study of Mus musculus with 14 samples.

Results

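MLL1 sites seen only under MM-401 were defined in mouse MLL-AF9 leukemia cells as MLL1 peaks of the MM-401 list that had no DMSO MLL1 peak within 2 kb. They were selected on the peak lists themselves: an autosomal MM-401 MLL1 peak was a member if it overlapped an H3K4me2 peak in DMSO and another under MM-401 by at least 1 bp and if no DMSO MLL1 peak lay within 2 kb. There were 8926 such sites among the 27345 peaks of the MM-401 MLL1 list. The absence of MLL1 in DMSO and the presence of H3K4me2 in both conditions were thus set by the choice of members and are not results.

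The cells, called MAF9 cells, were mouse bone marrow cells transduced with the MLL-AF9 fusion and received 20 µM MM-401 or its solvent DMSO for 2 days. A second line of bone marrow cells, called MLL1 flox cells here, carried MLL1 flox/flox and ER-cre+/- together with MLL-AF9 and received 400 nM 4OHT or its solvent EtOH for 2 days, so every group carried the fusion. All cells were grown with 15% serum and 10 ng per ml interleukin-3. Chromatin immunoprecipitation followed by sequencing gave 1 library for each condition and antibody, with 10 peak lists for MLL1, WDR5 and H3K4me2, and MLL1 was mapped in the MAF9 cells only. Whether MLL1 was lost under 4OHT could therefore not be checked. No group had a replicate, so no test between conditions was possible, and the lists held no read counts, so the depth behind each peak was unknown and the labelled cell type could not be checked against marker genes.

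MLL1 is a histone methyltransferase that methylates lysine 4 of histone H3, and the dimethylated form, H3K4me2, marks promoters and enhancers. WDR5 is a core subunit shared by the MLL family complexes and binds a short motif of MLL1 near its catalytic domain. MM-401 disrupts this contact, and in the flox cells 4OHT activates the Cre recombinase that excises the MLL1 gene. The MLL1 antibody recognized the C-terminal part of MLL1, which the MLL-AF9 fusion lacks.

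The MLL1 lists came from different peak callers, which limits every statement on what is absent from DMSO. The MM-401 MLL1 list and the 8 lists of WDR5 and H3K4me2 carried HPeak names and lay on a grid of 25 bp. The DMSO MLL1 list, with 8525 peaks, carried neither, and the study described MACS for it. Of the 26845 autosomal MM-401 MLL1 peaks, 24351 or 90.7% had no DMSO MLL1 peak within 2 kb whether or not H3K4me2 was present, and among the 11151 in both H3K4me2 lists the share was 80.0%. Read the other way, 2413 of 4252 autosomal DMSO MLL1 peaks in both H3K4me2 lists, or 56.7% (95% Wilson interval 55.3 to 58.2%), had no MM-401 MLL1 peak within 2 kb. The condition and the caller cannot be told apart in these shares. The lists also ended at different places: on 7 chromosomes, 13 to 19, 175 DMSO MLL1 peaks lay beyond the last peak of all 9 HPeak lists, by 636 kb to 16.5 Mb, so no site could be found there. These chromosomes held 2188 of the sites.

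H3K4me2 separated the MM-401 MLL1 list. Of the autosomal peaks, 11618 overlapped H3K4me2 in DMSO, 11516 overlapped it under MM-401 and 11151 did so in both, which left 14862 peaks, or 55.4%, with H3K4me2 in neither. Of the 11151, a DMSO MLL1 peak overlapped 435 and lay 1 to 2000 bp away from 1790. These 2225 peaks, called nearby-MLL1 peaks here, shared library, caller and H3K4me2 with the sites and were set apart from them by the DMSO MLL1 list alone. They served as the comparison.

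The sites were narrow. Their width ranged from 75 bp, the smallest width in all 9 HPeak lists, to 650 bp, with a median of 125 bp and quartiles of 100 and 175 bp. At the minimum lay 1662 sites, or 18.6%, while 192 sites, or 2.15%, were wider than 300 bp and 8 were wider than 500 bp. The nearby-MLL1 peaks had a median of 150 bp with the same quartiles and a largest width of 6100 bp, which came from a single broad peak. The 15694 autosomal MM-401 MLL1 peaks outside this pair of sets had a median of 100 bp, and 27.2% of them were at the minimum. The sites were therefore close in width to the nearby-MLL1 peaks and wider than the MLL1 peaks that lacked H3K4me2 in one or both conditions.

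**Figure D1:**
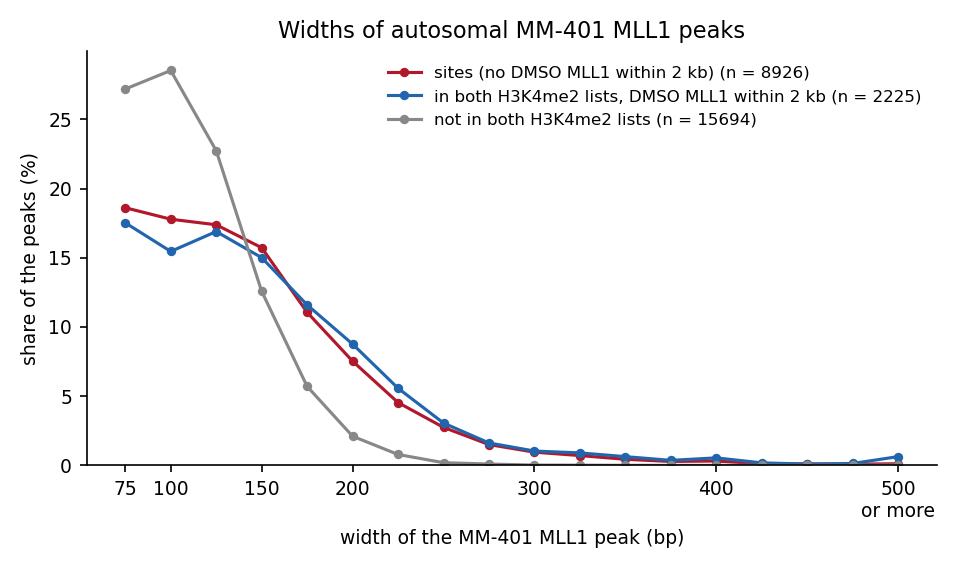
Share of peaks (y axis, %) at each width (x axis, bp, in steps of 25 bp with 500 bp or more pooled) for the 8926 sites (red), the 2225 nearby-MLL1 peaks (blue) and the 15694 other autosomal MM-401 MLL1 peaks (grey). Red and blue run close together, whereas the grey peaks gather at 75 to 125 bp.

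The 5 widest sites did not overlap WDR5 in the MAF9 cells, although overlap was more frequent among wider sites as a whole, as given below. The 2 widest, both 650 bp, lay at chromosome 2, 29658501 to 29659150, and chromosome 13, 55548201 to 55548850 (mm9). The former had its nearest WDR5 peak 30451 bp away in DMSO and 9926 bp away under MM-401, although a 4OHT WDR5 peak overlapped it. The latter lay 1101 bp from WDR5 in DMSO and 201 bp from it under MM-401. The next were 625 bp at chromosome 2, 60049801 to 60050425, 600 bp at chromosome 14, 69903376 to 69903975, and 575 bp at chromosome 4, 134321801 to 134322375. Of these 5, the 3 last-named had a DMSO MLL1 peak 2689, 4719 and 2747 bp away, not far outside the limit of the rule.

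To ask whether the subunit that binds MLL1 was called at these sites, the WDR5 lists, which the rule had not used, were overlapped with them. In DMSO, 642 of the 8926 sites overlapped a WDR5 peak, or 7.19% (6.67 to 7.75%), against a background of 3.42% of all autosomal MM-401 MLL1 peaks. Under MM-401 the count was 700, or 7.84% (7.30 to 8.42%), against a background of 3.77%. These backgrounds include the peaks without H3K4me2 in both conditions, which the rule left out of the sites. The gap to them is therefore not a result about the sites, and the nearby-MLL1 peaks are the like comparison. The nearby-MLL1 peaks overlapped WDR5 more often, in 240 cases or 10.8% (9.56 to 12.1%) in DMSO and in 273 cases or 12.3% (11.0 to 13.7%) under MM-401. The MLL1 peaks outside both sets almost never did, with 0.223% in DMSO and 0.249% under MM-401. More than 9 in 10 sites thus had no overlapping WDR5 peak in either single list.

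The sites fell below the nearby-MLL1 peaks by 3.59 percentage points (Newcombe 95% interval 2.25 to 5.05 points) for DMSO WDR5 and by 4.43 points (3.01 to 5.95 points) for MM-401 WDR5. All intervals here cover the counting of sites only and treat neighbouring sites as independent. They say nothing of the spread between libraries, which was not measured. The sites were also lower in DMSO WDR5 within each of the 5 width classes of DMSO H3K4me2 domain, with an interval that left out 0 in 4 of them. In domains of up to 500 bp the sites had 5.78% and the nearby-MLL1 peaks 26.7%, but the latter numbered 15. In domains over 500 and up to 1000 bp the values were 6.55% and 23.4%, with 47 nearby-MLL1 peaks. In domains over 2000 and up to 5000 bp the sites overlapped DMSO WDR5 in 8.20% of cases and the nearby-MLL1 peaks in 11.3%, a difference whose interval ran from 1.18 to 5.18 points below 0. In domains over 5000 bp the shares were 6.19% and 9.97%, with an interval from 1.32 to 6.57 points below 0. In domains over 1000 and up to 2000 bp they were 6.54% and 8.24%, and the interval included 0. For MM-401 WDR5 the sites were lower in each class as well. There the interval of sites minus nearby-MLL1 peaks included 0 in domains of up to 500 bp (-37.0 to 1.82 points). It also did so in domains over 1000 and up to 2000 bp (-6.57 to 0.043 points).

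The MLL1 flox cells, which no step of the rule had used, gave similar levels. EtOH WDR5 overlapped 757 sites, or 8.48% (7.92 to 9.08%), against a background of 4.1%, and 4OHT WDR5 overlapped 797, or 8.93% (8.35 to 9.54%), against 4.34%. These backgrounds have the same limit as those of the MAF9 lists. For the nearby-MLL1 peaks the shares were 11.4% and 12.1%. The flox WDR5 lists were longer, with 34587 and 41054 peaks against 14481 in DMSO and 17273 under MM-401, so the higher shares in flox cells stand beside longer lists. In all 4 lists the sites were below the nearby-MLL1 peaks, by 2.93 points (1.55 to 4.43 points) in EtOH and by 3.21 points (1.78 to 4.74 points) under 4OHT.

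**Figure D2:**
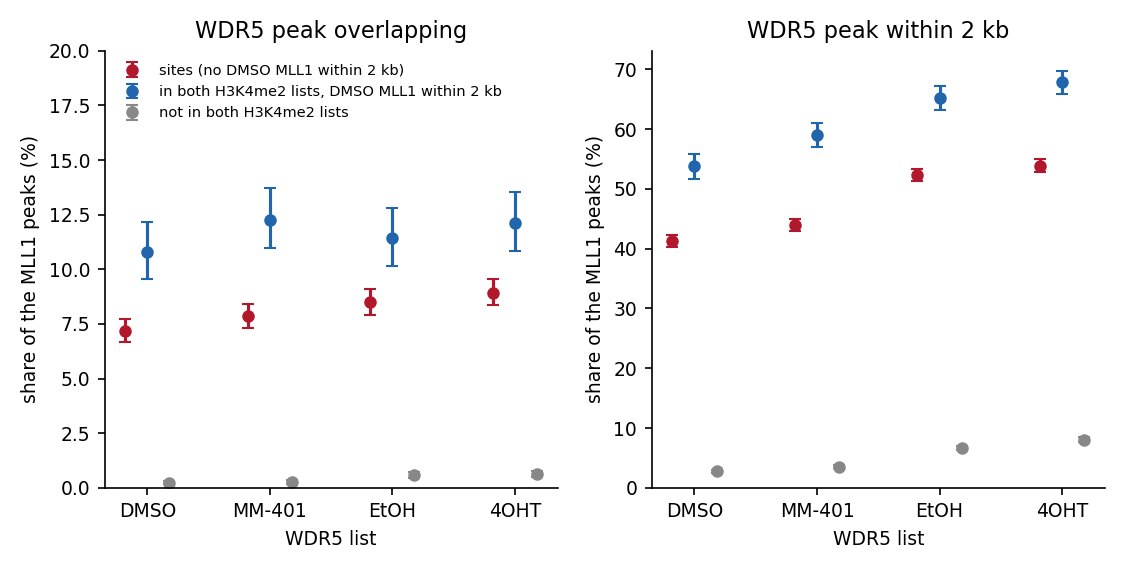
Share of MM-401 MLL1 peaks (y axis, %) that a WDR5 peak of each list (x axis) overlaps (left) or approaches within 2 kb (right), for the sites (red), the nearby-MLL1 peaks (blue) and the remaining autosomal peaks (grey); bars are 95% Wilson intervals for counting error. The red points lie between 7.19% and 8.93% on the left and below the blue points in every list.

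MM-401 and DMSO marked mostly different sites with WDR5. Both lists overlapped 236 sites, DMSO alone 406 and MM-401 alone 464, while 7820 sites, or 87.6%, had neither. Of the 642 sites with WDR5 in DMSO, 36.8% (33.1 to 40.6%) also had it under MM-401, close to the 40.3% (39.5 to 41.1%) of all autosomal DMSO WDR5 peaks that an MM-401 WDR5 peak overlapped. A WDR5 peak under MM-401 lay within 2 kb of 69.9% (66.3 to 73.4%) of these 642 sites. The net difference of MM-401 minus DMSO was 0.65 percentage points of the sites (0.0023 to 1.30 points), and the interval barely left out 0. It included 0 when 50% of the peak had to lie in H3K4me2 (-0.051 to 1.27), when peaks within 10 kb of DMSO MLL1 were also left out (-0.48 to 0.95), with the widest 50% of MM-401 MLL1 peaks (-0.30 to 1.5), with as many of the widest as the DMSO MLL1 list holds (-0.22 to 1.95), and without chromosome 1 (-0.011 to 1.31). In the flox cells, 215 sites had WDR5 in both lists, 542 in EtOH alone and 582 under 4OHT alone. The difference was thus small beside the turnover between lists.

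Sites with WDR5 in both MAF9 lists were also those most often found with it in the flox cells. Of these 236 sites, 139 or 58.9% (52.5 to 65.0%) overlapped a WDR5 peak in EtOH or 4OHT. The share was 37.2% (32.6 to 42.0%) for the 406 sites with WDR5 in DMSO alone, 25% (21.3 to 29.1%) for the 464 with it under MM-401 alone, and 11.9% (11.2 to 12.7%) for the 7820 with neither. The intervals of the 4 classes did not overlap. For EtOH alone the order was 40.7, 24.1, 14.4 and 6.34%. The nearby-MLL1 peaks gave 63.2, 39.9, 27.4 and 15.2% over the same classes, so this order was not particular to the sites.

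Over the 4 WDR5 lists, 6887 sites, or 77.2% (76.3 to 78.0%), overlapped no WDR5 peak at all, 1425 overlapped one in a single list, 417 in 2 lists, 151 in 3 and 46 in all 4. Among the nearby-MLL1 peaks 68.6% (66.6 to 70.5%) had none and 26 of 2225, or 1.17%, had all 4, against 0.515% of the sites. The widest site with WDR5 in all 4 lists was 500 bp, at chromosome 1, 168309151 to 168309650. It lay at the edge of its DMSO H3K4me2 peak of 2950 bp, and its nearest DMSO MLL1 peak was 377248 bp away. The widest site with WDR5 in both MAF9 lists, 550 bp at chromosome 1, 74442826 to 74443375, shared a domain of 3850 bp with 4 other sites, as the domain held 5. The widest site with WDR5 in DMSO alone was 525 bp, at chromosome 13, 42145151 to 42145675, with MM-401 WDR5 3151 bp away, and the widest with WDR5 under MM-401 alone was 475 bp, at chromosome 4, 59819151 to 59819625, with DMSO WDR5 301 bp away.

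Wider sites overlapped WDR5 more often. In DMSO the share rose from 4.87% (3.94 to 6.02%) of sites at 75 bp through 7.27% (6.39 to 8.27%) at 125 to 150 bp to 17.2% (12.5 to 23.2%) of the 192 sites wider than 300 bp. Under MM-401 the corresponding shares were 5.35, 7.34 and 18.2%, and in EtOH they were 5.90, 7.75 and 15.6%. A wider site can meet a WDR5 peak more easily, and the part of this geometry was not tested. The WDR5 peaks at the sites were themselves wide for their lists, with a median of 225 bp against 175 bp for all autosomal WDR5 peaks in DMSO and 200 bp against 150 bp under MM-401.

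WDR5 was often near a site without overlapping it. In DMSO a WDR5 peak lay within 500 bp of 23.7% of the sites and within 2 kb of 41.2% (40.2 to 42.2%), and under MM-401 these shares were 25.3% and 44.0% (42.9 to 45.0%). Within 2 kb of the nearby-MLL1 peaks WDR5 was found in 53.8% of cases in DMSO and 59.1% under MM-401. From a site to the nearest WDR5 peak the median distance was 1551 bp under 4OHT, 1676 bp with EtOH, 3351 bp under MM-401 and 4401 bp with DMSO, an order that follows the lengths of the lists. In the flox lists 52.3% of the sites in EtOH and 53.9% under 4OHT had WDR5 within 2 kb. Over all autosomal MM-401 MLL1 peaks, with or without H3K4me2, the share within 500 bp was 10.7% in DMSO and 11.7% under MM-401. That within 2 kb was 19.8% and 21.6% in these lists, 26.7% for EtOH and 28.2% for 4OHT.

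**Figure D3:**
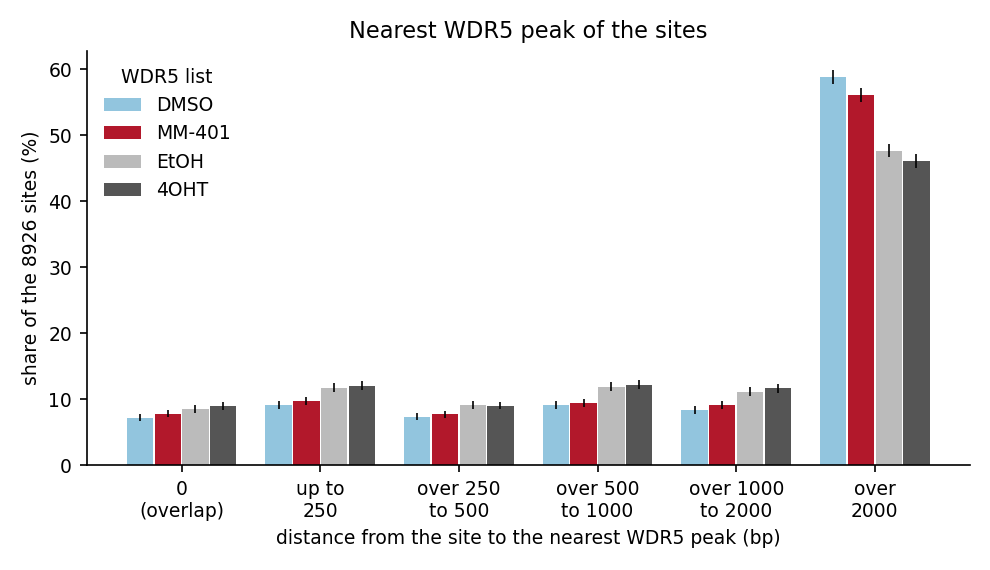
Share of the 8926 sites (y axis, %) by distance to the nearest WDR5 peak of each list (x axis, bp, classes of unequal width), with 95% Wilson intervals for counting error. From 7.19 to 8.93% overlap a WDR5 peak, and from 46.1% (4OHT) to 58.8% (DMSO) have none within 2000 bp.

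Within their domains, the bases of the sites were moderately richer in WDR5 than the rest of the domain. In DMSO 4.76% of the site bases lay in a WDR5 peak against 3.20% of the other bases of the same H3K4me2 peaks, a ratio of 1.49. Under MM-401 the values were 5.09% and 3.76%, a ratio of 1.36. In the flox cells the ratios were 1.15 in EtOH and 1.22 under 4OHT. A WDR5 peak lay somewhere in 2580 of the 7210 DMSO host domains, or 35.8% (34.7 to 36.9%), and in 2917 of the 7087 MM-401 host domains, or 41.2% (40.0 to 42.3%). Over all autosomal H3K4me2 peaks of each list these shares were 11.1% and 13.8%. DMSO hosts were also compared with DMSO domains that had no MM-401 MLL1 peak but an H3K4me2 counterpart under MM-401. In both kinds the share with DMSO WDR5 rose with width, and hosts were higher in each width class. It was 10.1% of hosts against 3.42% up to 500 bp, 14.8% against 9.10% up to 1000 bp and 24.4% against 19.2% up to 2000 bp. Up to 5000 bp it was 42.9% (41.2 to 44.7%) against 35.7% (34.6 to 36.8%), and over 5000 bp 61.1% against 48.0%. How much of the gap goes with width was not computed. A site was more often in a domain with WDR5 than on WDR5, 39.2% against 7.19% in DMSO.

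The H3K4me2 domains that held the sites were wide. Where a site met several H3K4me2 peaks, as 20 sites did in DMSO and 19 under MM-401, the widest was taken as the host domain. In DMSO the host domain had a median width of 2500 bp (2450 to 2525 bp, the 95% interval of the median from counting) and quartiles of 1600 and 4050 bp, with extremes of 75 and 31325 bp. This median counts a domain once for each of its sites. With each of the 7210 DMSO host domains counted once it was 2225 bp, and over all 102640 autosomal DMSO H3K4me2 peaks it was 425 bp. A wide domain has more room for a site, and the part of this in the gap was not tested. The nearby-MLL1 peaks lay in still wider domains, with a median of 3450 bp (3375 to 3575 bp). In DMSO 8570 of the sites, or 96.0%, lay wholly inside H3K4me2.

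Sites were more frequent in wider domains even for their length. In successive classes of width, a site was found in 0.504% of DMSO H3K4me2 domains of up to 500 bp, 3.68% of those up to 1000 bp, 12.2% of those up to 2000 bp, 28.0% of those up to 5000 bp, and 56.1% (53.6 to 58.5%) of the 1584 domains over 5000 bp. Per megabase of domain there were 22.9 sites in the narrowest class and 50.8, 90.9, 121 and 138 in the following classes. Since members had to overlap H3K4me2 in both conditions, narrow DMSO domains without an MM-401 counterpart could hold none, and the part of this condition was not tested. The share of sites with WDR5 did not follow domain width in the same way: in DMSO it was 5.78, 6.55, 6.54, 8.20 and 6.19% from the narrowest class to the widest.

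Most hosts held a single site. Of the 7210 DMSO host domains, 5934, or 82.3%, held 1 site, 965 held 2, 223 held 3 and 88 held 4 or more. Domains with several sites were 17.7% of the hosts and held 33.5% of the sites. Their median width grew from 2025 bp with 1 site to 3250 bp with 2, 5125 bp with 3 and 7075 bp with 4. Neighbouring sites in 1 domain were a median of 601 bp apart, with quartiles of 276 and 1301 bp. These sites share their domain and are not independent.

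Sites lay toward the middle of their domains. In DMSO domains over 1000 bp, the distance from the centre of the domain to its edge was divided into 3 equal parts, and 44.4% of the 8038 sites had their centre in the innermost part and 18.5% in the outermost. The nearby-MLL1 peaks gave 45.4% and 17.7%, and DMSO WDR5 peaks in the same domains gave 42.1% and 24.9%. MM-401 WDR5 peaks in these domains gave 43.0% and 21.3%. The rule asks for H3K4me2 at the site in both conditions, which a peak near a domain edge meets less easily. The WDR5 peaks were not chosen by this rule, and its part in the position of the sites was not tested. The sites were thus placed much like the nearby-MLL1 peaks. Their median distance to the nearer domain edge was 725 bp.

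**Figure D4:**
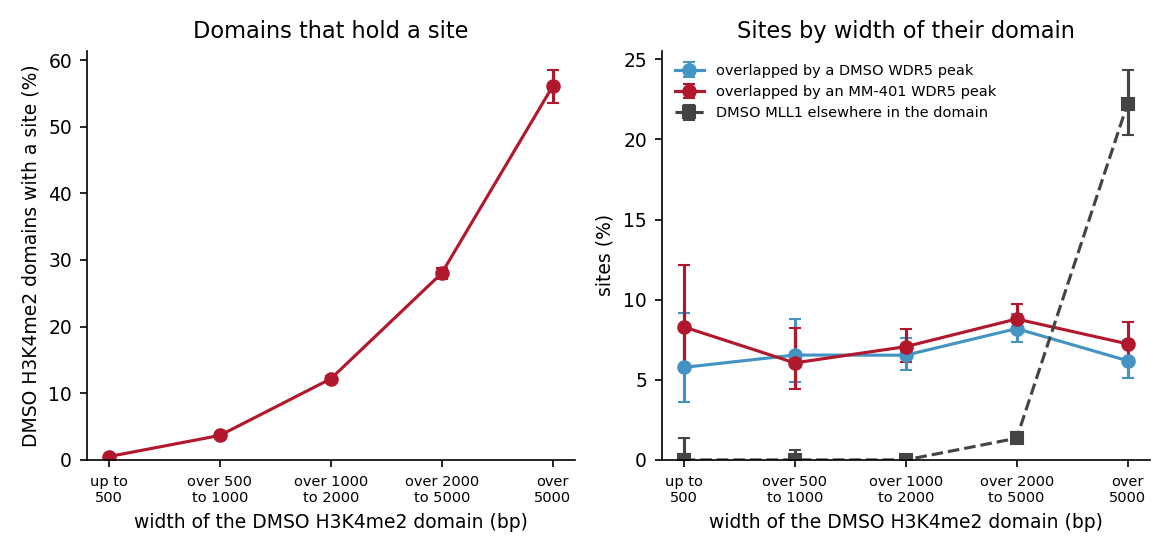
Left, share of autosomal DMSO H3K4me2 domains (y axis, %) that hold at least 1 site, by domain width (x axis, bp); right, share of the sites (y axis, %) that overlap WDR5 in DMSO (blue) or under MM-401 (red), and share whose domain holds a DMSO MLL1 peak elsewhere (black squares), with 95% Wilson intervals for counting error. Hosting climbs from 0.504 to 56.1% with width and DMSO MLL1 elsewhere reaches 22.2%, while the WDR5 shares stay between 5.78 and 8.80%.

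Whether DMSO MLL1 lay elsewhere in the same domain depended on the room the rule leaves for it. The DMSO host domain held a DMSO MLL1 peak more than 2 kb from the site in 413 of 8926 cases, or 4.63% (4.21 to 5.08%). Counted per domain, 272 of the 7210 hosts, or 3.77%, held one. Over all autosomal DMSO H3K4me2 peaks 3.84% overlapped a DMSO MLL1 peak, at any position and over mostly narrower domains. Among domains over 2000 and up to 5000 bp, 1.57% of hosts held one, against 13.9% of domains without an MM-401 MLL1 peak. Over 5000 bp the shares were 25% and 27.9%. The rule bars DMSO MLL1 near a site in hosts only, so these gaps are not results. Counted per site, the share followed the width that the rule leaves free. It was 0 of 3321 sites in domains of up to 2000 bp and 1.35% (1.04 to 1.76%) in domains over 2000 and up to 5000 bp. In domains over 5000 bp it was 22.2% (20.3 to 24.3%) of the 1615 sites. A domain of 2000 bp or less has no room for a peak more than 2 kb from a site in it, so its 0 was fixed by the rule. With the limit moved to 0 bp the share over all sites was 18.1%, and with 10 kb it was 0.193%. Of the 413 sites, 344 had 1 DMSO MLL1 peak in the domain, 52 had 2 and the other 17 had 3 to 5.

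The 413 sites lay in 272 domains with a median DMSO width of 8200 bp, against 2400 bp for the 8513 sites whose domain held no DMSO MLL1. Their median distance to the DMSO MLL1 peak was 3260 bp. They overlapped WDR5 in 5.57% of cases in DMSO (3.74 to 8.22%) and 7.99% under MM-401 (5.75 to 11.0%), and the other sites did so in 7.27% and 7.84%, with intervals that overlapped. Among domains over 5000 bp alone, the DMSO shares were 5.29% with DMSO MLL1 elsewhere (3.41 to 8.12%) and 6.45% without it (5.22 to 7.94%). No difference in WDR5 between these kinds of site was detectable at these numbers.

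The distance to DMSO MLL1 was used by the rule, so it only describes the sites, and no background distance was computed. The median distance to the nearest DMSO MLL1 peak was 41.0 kb, with quartiles of 14.3 and 98.3 kb, and 24.5% of the sites were over 100 kb away. In all, 855 sites, or 9.58%, lay no more than 5 kb away. These had the lowest DMSO WDR5 share, 4.68% (3.45 to 6.31%), and a share of 7.6% (6.01 to 9.57%) under MM-401. Sites from there up to 10 kb had 7.77 and 9.71%, those up to 50 kb had 7.24 and 7.87%, and those beyond had 7.58 and 7.48%. Inside the limit, the nearby-MLL1 peaks over 1000 bp from DMSO MLL1 had 9.25% (7.16 to 11.9%) and those overlapping it 14.9% (11.9 to 18.6%) in DMSO.

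At the limit itself, the 3 members nearest to DMSO MLL1 lay 1 bp past the limit at chromosome 17, 27958076 to 27958150, 4 bp past it at chromosome 11, 95155976 to 95156125, and 10 bp past it at chromosome 12, 78161676 to 78161875. They were 75, 150 and 200 bp wide and none overlapped WDR5 in any list. The 3 peaks just left out were 3, 4 and 9 bp short of the limit, at chromosome 12, 86679401 to 86679550, chromosome 3, 89192051 to 89192250, and chromosome 2, 35115451 to 35115525. Their widths were 150, 200 and 75 bp, and the peak on chromosome 3 overlapped WDR5 in DMSO. The peaks named here on either side of the limit were thus of like width.

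Under MM-401 the host domain had a median width of 2650 bp (2600 to 2700 bp), against 2500 bp in DMSO. At single sites the change was small and went both ways: the domain was wider under MM-401 at 4426 sites, or 49.6%, narrower at 4277, or 47.9%, and equal at 223, with a median change of 0 bp and quartiles of -275 and 400 bp. The direction of the median depended on how a domain was defined, since joining H3K4me2 peaks up to 1 kb apart gave 4325 bp in DMSO and 3975 bp under MM-401. Domains at least 2-fold wider were found at 750 sites and domains at least 2-fold narrower at 376. Over all autosomal DMSO H3K4me2 peaks overlapped under MM-401, 53.7% met a wider MM-401 peak, a background near the share of the sites.

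Counted per domain over all widths, hosts met a wider MM-401 peak less often than domains without any MM-401 MLL1 peak, 50.5% (49.4 to 51.7%) against 54.2% (53.8 to 54.6%). Within width classes the order was the reverse in each class over 500 bp. For domains of up to 500 bp the shares of 72.6% (67.0 to 77.5%) and 69.5% (68.9 to 70.1%) had overlapping intervals, and for those up to 1000 bp they were 59.9% (55.9 to 63.8%) and 44.6% (43.8 to 45.5%). In domains over 1000 and up to 2000 bp 55.9% (53.8 to 57.9%) of hosts and 46.3% (45.5 to 47.1%) of the others did so, in those up to 5000 bp 46.0% (44.3 to 47.8%) and 40.0% (38.9 to 41.1%), and in those over 5000 bp 39.8% (36.6 to 43.0%) and 30.8% (26.7 to 35.2%). The rule asks for an MM-401 H3K4me2 peak under the site, which a wider MM-401 peak meets more easily. The part of this in the difference was not tested.

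The extremes show how domains were redrawn between lists. The widest DMSO host, 31325 bp at chromosome 16, 49857901 to 49889225, held 1 site of 100 bp and measured 14825 bp under MM-401. The largest gain was at chromosome 9, where a DMSO domain of 10275 bp at 32313026 to 32323300, with 4 sites, lay in an MM-401 domain of 46425 bp. In EtOH the domain at the same site was 46650 bp. The largest loss was at chromosome 2, where a domain of 26025 bp at 3658401 to 3684425 was 3475 bp under MM-401 and 22050 bp in EtOH.

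H3K4me2 was present at nearly all sites in the flox cells too. An EtOH H3K4me2 peak overlapped 8689 sites, or 97.3% (97.0 to 97.7%), against a background of 43.7% of all autosomal MM-401 MLL1 peaks, and a 4OHT peak overlapped 8656, or 97.0% (96.6 to 97.3%), against 42.8%. This gap is largely built in, since the rule chose sites with H3K4me2 in the MAF9 cells and the background did not. The nearby-MLL1 peaks, chosen for the same H3K4me2, had 99.6% in EtOH and 99.4% under 4OHT. The sites were lower by 2.21 points (1.72 to 2.62 points) and 2.44 points (1.91 to 2.89 points). The domains at the sites had a median width of 3675 bp in EtOH and 2938 bp under 4OHT. At the 8547 sites with H3K4me2 in both flox lists, the domain was narrower under 4OHT at 77.7% and wider at 20.4%, with a median change of -400 bp. The nearby-MLL1 peaks behaved alike, with 83.1% narrower.

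The domain with most sites, at chromosome 11, 117185026 to 117198000, brings these features together. It was 12975 bp in DMSO and 13075 bp under MM-401, and it held 7 sites of 75 to 200 bp. A single DMSO MLL1 peak of 139 bp lay in the domain, 2125 bp from the nearest site and 6250 bp from the farthest. Of the 9 MM-401 MLL1 peaks in the domain, the pair not counted as sites lay nearer to that DMSO peak. None of the 7 sites overlapped WDR5 in any list, although the domain held 2 WDR5 peaks in each solvent list, 4 after MM-401 and 3 after 4OHT, and the last site lay 76 bp from WDR5 in DMSO and 51 bp under MM-401.

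**Figure D5:**
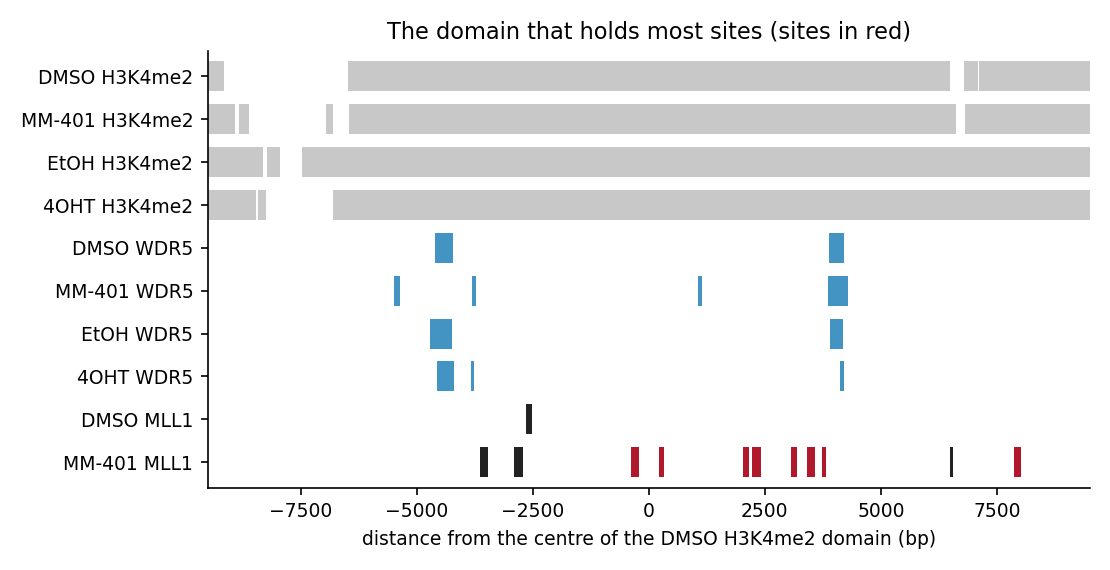
Peaks of all 10 lists (rows) over the domain with most sites, by distance from the centre of the DMSO H3K4me2 domain (x axis, bp); grey blocks are H3K4me2, blue WDR5, black MLL1 and red the sites, and each block has the width of its peak. The 7 sites of the domain lie in its centre and right part, between the DMSO MLL1 peak and a WDR5 peak found in all 4 WDR5 lists, and the red block at the far right belongs to the neighbouring domain.

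Chromosome 1 stood apart in WDR5 in the MAF9 cells. Its 763 sites overlapped DMSO WDR5 in 12.1% of cases (9.94 to 14.6%) and MM-401 WDR5 in 12.7% (10.5 to 15.3%). The other autosomes together gave 6.74% and 7.39%, and the highest among them were 8.63% in DMSO, on chromosome 16, and 9.60% under MM-401, on chromosome 8. In the flox cells chromosome 1 gave 8.26% in EtOH and 7.86% under 4OHT, against 8.50% and 9.03% elsewhere. The nearby-MLL1 peaks on chromosome 1 were higher in the MAF9 lists as well, 19.1% against 9.88% in DMSO. This chromosome stood out in the DMSO MLL1 list too. With all its DMSO MLL1 peaks counted, inside H3K4me2 or not, it had 128 per megabase of DMSO H3K4me2. The next highest value was 99.3, on chromosome 14, where 31 of the 336 DMSO MLL1 peaks lay beyond the end of all HPeak lists. Of the 2877 MM-401 MLL1 peaks on chromosome 1, 34.2% lay in both H3K4me2 lists, against 41.5% over all autosomes. This share was not particular to it, since chromosome 18 had 34.4%. Chromosome 1 was chosen for this description after its values were seen, and a cause was not tested.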

How the data were processed

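The study mapped MLL1, WDR5 and H3K4me2 by ChIP-seq in 14 samples, 4 of them inputs, which were not used here. The authors deposited 10 lists of peak positions (chromosome, start and end), each called on 1 library, with no score or read count. Per the submitters' processing notes, reads were aligned with Bowtie to mm9. Positions of the 9 HPeak lists were read as 1-based and inclusive, while the DMSO MLL1 starts were taken as 0-based, a reading that may be off by 1 bp. Thresholds of the HPeak lists are not given in the sources used here.

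Distances were taken between peak edges, and overlap meant at least 1 shared bp. Python 3.11.15, numpy 2.4.6, pandas 2.3.3, scipy 1.17.1 and matplotlib 3.10.9 were used, and the overlap code was tested on simulated peaks and against bedtools 2.31.1. Shares carry Wilson and differences Newcombe 95% intervals, except that the MM-401 minus DMSO difference over the same sites has a normal interval for paired shares. PCR duplicates and library spread are not covered. With 1 library per group no p-value is given.

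Members and lists were chosen with earlier results of these data known. Named sites were the 5 widest, the widest of each WDR5 class, those with the widest or most changed host domain, those of the domain with most sites, and the 3 nearest the 2 kb limit on either side. Genes, promoters and motifs at the sites were not analysed here, because no mm9 genome or annotation was used.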

Additional observations from a re-analysis of the deposited data

Results flagged for a closer look

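The median and mean width of the host domain over the sites differed in opposite directions for the 2 treatments. From DMSO to MM-401 its median over the sites rose by 150 bp and its mean by 214 bp, whereas from EtOH to 4OHT the median was lower by 737.5 bp (-737.5 bp) and the mean differed by -1154 bp. These values were not paired by site, and the EtOH and 4OHT values cover 8689 and 8656 sites. At the same sites the median change was 0 bp from DMSO to MM-401, with 49.6% wider and 47.9% narrower. From EtOH to 4OHT it was -400 bp over 8547 sites. Each treatment had 1 library, so the difference between the treatments was not tested. The EtOH H3K4me2 list held 3119 autosomal domains over 5 kb against 2065 under 4OHT, 1584 in DMSO and 1670 under MM-401, and with H3K4me2 peaks up to 1 kb apart joined the change under MM-401 turned to lower values, from 4325 to 3975 bp.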

How the results depend on the processing

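Of 100 values recomputed under other settings, 56 stayed within the counting interval of the reported value (counts of sites within 1.5 times), 44 moved and none changed sign. Counts, shares and widths cannot be negative, so only the differences in WDR5 share could have changed sign. The difference in median host width between MM-401 and DMSO was not among these values, and its direction did reverse when H3K4me2 peaks were joined. With the widest 50% of MM-401 MLL1 peaks there were 5483 sites, and with as many of the widest as the DMSO MLL1 list holds there were 4037. Their median widths were 150 and 175 bp, the WDR5 shares 8.63 and 9.12% (DMSO), 9.23 and 9.98% (MM-401), 9.94 and 10.9% (EtOH) and 10.6 and 11.4% (4OHT), the host widths 2550 and 2625 bp (DMSO) and 2725 and 2800 bp (MM-401), and the H3K4me2 shares 97.8 and 98.1% (EtOH) and 97.5 and 98.0% (4OHT). Counting WDR5 up to 2 kb away gave 41.2% (DMSO), 44.0% (MM-401), 52.3% (EtOH) and 53.9% (4OHT), a difference of MM-401 minus DMSO of 2.73 points, and differences from the nearby-MLL1 peaks of -12.6 and -15.1 points. With the DMSO MLL1 limit at 0 bp and at 10 kb, host widths were 2650 and 2375 bp (DMSO) and 2850 and 2525 bp (MM-401), DMSO MLL1 elsewhere was 18.1 and 0.193%, and the difference from the comparison peaks was -7.32 and -1.39 points for DMSO WDR5 and, at 0 bp, -8.14 points for MM-401 WDR5. The 0 bp limit gave H3K4me2 at 97.7% (EtOH) and 97.4% (4OHT), and requiring 50% cover gave 97.7 and 97.6%. Joining H3K4me2 peaks gave hosts of 4325 and 3975 bp and DMSO MLL1 elsewhere in 11.0%. Without chromosome 1, chosen after seeing the data, the EtOH H3K4me2 share was 97.7%. The causes were not tested beyond what each setting itself changes.

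Depth was unknown and a peak missing from a list is one that was not called. No paired analysis was possible because each group had 1 library and the labels carry no replicate numbers. For the same reason no replicate was left out. The planned gene, promoter and motif results were not run.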
